A study of Mus musculus with 16 samples.

Results

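Translation initiation and elongation factors are the proteins that bring the initiator tRNA, the mRNA cap and the ribosomal subunits together and then drive the ribosome along the mRNA. The genes described here are those whose symbol begins with Eif1 to Eif6 or with Eef1 or Eef2, without the Argonaute genes that once carried Eif2c names. They were taken through all probe sets with exactly 1 gene symbol in the platform annotation, which gave 155 probe sets of 58 genes among 45101 probe sets on the array. Another 8 probe sets carried such a symbol together with other symbols and were left out. Of the 58 genes, 42 had at least 2 probe sets, 16 had 1, and the largest number for 1 gene was 6.

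The RNA came from E14tg2a, a mouse embryonic stem cell line that grows without feeder cells, and every array was made from the same total RNA preparation. One group of 8 arrays was made from 10 pg of that RNA each, about the content of a single cell, whose cDNA was amplified by PCR in 8 independent reactions with the V1V3 method. The other group of 8 arrays was made from 5 µg of undiluted RNA without PCR amplification, and both groups were labelled with biotin in the Affymetrix one-cycle assay. The comparison asks how closely the amplified arrays resemble each other and the nonamplified ones. All 16 are technical replicates, so every p-value measures technical spread, and no difference described here is a difference between cells.

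Initiation in mammals starts when eIF2 carries the initiator tRNA to the small ribosomal subunit together with eIF1, eIF1A, eIF3 and eIF5. The cap-binding protein eIF4E, the scaffold eIF4G and the helicase eIF4A load the subunit onto the mRNA, and eIF5B joins the large subunit once the start codon is found. Elongation then uses eEF1A to deliver aminoacyl-tRNA, the eEF1B exchange factor to recharge it, and eEF2 to move the ribosome forward. Phosphorylation of eIF2 and sequestration of eIF4E by its binding proteins are the main switches of the rate of initiation, and embryonic stem cells are known to keep overall translation low compared with their differentiated progeny.

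Median intensity over all probe sets was 33.9 to 36.7 on the amplified arrays and 49.8 to 53.9 on the nonamplified arrays. The 8 markers of embryonic stem cells listed for the check of the label, among them Pou5f1, Sox2 and Nanog, were all present on the array, and their summed intensity was 30371 to 31793 on the nonamplified and 40687 to 43896 on the amplified arrays. All 6 fibroblast markers had probe sets, with a sum of 294 to 392 on the nonamplified and 196 to 267 on the amplified arrays. The 4 primitive endoderm markers summed to 243 to 317 on the nonamplified and 473 to 582 on the amplified arrays, of which Gata6 on 1443081_at took a mean of 73.2 and 229 and Sox7 on 1432495_at 11.6 and 97.9, while the other 7 probe sets had means under 50 in both groups. Of the blood markers, 2 of 3 had probe sets, which summed to 88.8 to 129 on the nonamplified and 50.2 to 110.3 on the amplified arrays. The sums do not speak for each stem cell marker, since 6 of their 11 tested probe sets were higher and 4 lower. Utf1 rose from 1814 ± 147 to 8761 ± 393 (SD, n = 8) on 1416899_at, and its log2 fold change was 3.36 on 1443786_at. Nanog on 1429388_at fell from 1776 ± 61.0 to 276 ± 79.5 (SD, n = 8), and Esrrb on 1422986_at from 607 ± 25.3 to 15.1 ± 12.7 (SD, n = 8). The part of these markers in the differences below was not tested, and all arrays share 1 RNA preparation.

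Promoter windows are shown for a paralog pair of the eIF2 complex and for members whose start regions share a motif. Sequences are from RefSeq, build GRCm38.p6, and each window holds 70 bases before and 30 bases from the annotated start, read 5′ to 3′ on the gene's strand. Capitals in the first pair mark the longest run of bases that Eif2s3x and Eif2s3y, the X-linked and Y-linked genes of the eIF2 gamma subunit, share in these windows, 12 bases. The Eif2s3x window is chrX:94212622-94212721 on the minus strand and the Eif2s3y window is chrY:1010525-1010624 on the plus strand.
Eif2s3x: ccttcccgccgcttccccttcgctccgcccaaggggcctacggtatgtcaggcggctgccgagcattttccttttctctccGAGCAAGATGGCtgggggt
Eif2s3y: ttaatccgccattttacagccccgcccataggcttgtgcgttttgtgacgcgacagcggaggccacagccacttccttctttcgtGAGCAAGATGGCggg

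Capitals in the next windows mark CCGGAAGT, the core of the sites that ETS-family factors bind, searched on both strands. It lies in the 300 bases around a start (250 before and 50 after) of 9 of the 47 member genes that have a window in the table (19.1%) and of 1164 of 27025 genes in all (4.31%). The windows shown belong to Eef1b2, an eEF1B subunit (chr1:63176761-63176860, plus strand), Eif2b2 and Eif2b4, the beta and delta subunits of eIF2B (chr12:85219411-85219510, plus strand, and chr5:31193110-31193209, minus strand), and Eif4e2, a relative of eIF4E (chr1:87213841-87213940, plus strand). These are some of the windows with a match. A gene counted if any of its windows matched, with 62 windows for the 47 member genes and 32851 for the 27025 genes. The 27025 were not limited to genes with a tested probe set. The shares were not matched for either, and their difference was not tested. A match describes these letters and is no evidence of binding, and no result below was tested against it.
Eef1b2: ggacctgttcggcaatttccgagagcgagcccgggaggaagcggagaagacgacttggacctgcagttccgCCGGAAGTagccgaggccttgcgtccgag
Eif2b2: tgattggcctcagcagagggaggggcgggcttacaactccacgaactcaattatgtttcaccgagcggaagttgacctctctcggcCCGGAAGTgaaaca
Eif2b4: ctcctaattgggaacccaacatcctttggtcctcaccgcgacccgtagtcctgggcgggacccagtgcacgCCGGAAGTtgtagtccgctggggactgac
Eif4e2: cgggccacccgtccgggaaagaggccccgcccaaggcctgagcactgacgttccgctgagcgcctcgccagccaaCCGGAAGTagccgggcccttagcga

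Intensities are on the deposited linear scale, whose lowest listed value is 1. Where 3 intensities are given for a group, they are the lowest, the median and the highest of its 8 arrays. A log2 fold change is amplified minus nonamplified on the log2(intensity + 16) scale, n = 8 in each group, and understates the change of dim probe sets. A probe set is called higher or lower when its limma adjusted p, taken over all 27022 probe sets tested, is under 0.05. Of the 155 member probe sets, 131 passed the filter on dim probe sets and covered 57 genes, all but Eif4a3. The filter used the mean log2(intensity + 16) over all arrays and left out values up to that of an intensity of about 33.7. Members low on the amplified arrays alone could thus be left out. The 24 untested member probe sets had nonamplified means up to 80.2 and did not exceed an intensity of 90.5 on any array.

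Among the 131 tested members, 28 were higher and 55 lower on the amplified arrays and 48 did not pass. That is 63.4% called, against 57.5% of all tested probe sets. The share called higher was 21.4% (24.7% of all) and the share called lower 42.0% (32.8% of all). The median log2 fold change was −0.35 for the members and −0.17 for all tested probe sets. In 55 members (42.0%) the 8 values of one group did not overlap those of the other, and this held for 33.6% of all tested probe sets. By at least 2-fold, 10 members were higher and 36 lower, where all probe sets gave 12.5% higher and 22.1% lower.

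The split between higher and lower depends on how the arrays are scaled to each other. As deposited, 33.7% of the member calls were higher, and this share was 14.1% after quantile normalization, 52.9% with each array centred on its median, 46.0% with scaling to the brighter 50% of probe sets, and 14.6% with scaling to the hybridization controls. The same shares over all probe sets were 43.0%, 50.9%, 63.2%, 54.1% and 22.9%. The median log2 fold change of all probe sets was −0.026, 0.24, 0.045 and −0.57 under these 4 scalings, and that of the members was −0.55, 0.062, −0.13 and −0.75. Members called higher and lower numbered 12 and 73 after quantile normalization (30.6% and 29.6% of all tested probe sets), 45 and 40 after median centring (38.1% and 22.2%), 40 and 47 on the brighter 50% (31.4% and 26.6%) and 12 and 70 on the hybridization controls (13.0% and 43.9%). Under the deposited scale and all 4 scalings, 7 members were called higher and 40 lower each time. A further 7 members called higher as deposited were called lower under at least 1 scaling, and 1 called lower was called higher. Calls given below are those as deposited, and a scaling is named wherever it removed, added or turned the call of a probe set that is described. Counts for a group of factors are followed by their range under the 4 scalings.

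Among the brightest members the calls as deposited went both ways. In the 49 members with a nonamplified mean over 1500, 17 were higher and 18 lower, and their median log2 fold change was 0.046. Over all probe sets of that brightness, 53.5% were called higher and 24.7% lower, with a median of 0.31. In the 40 members between 300 and 1500, 7 were higher and 16 lower (25.2% and 37.4% of all probe sets in that range). In the 42 members under 300, 4 were higher and 21 lower (23.0% and 32.2% of all).

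Taken by gene, 11 of the 57 genes had probe sets called higher only, 19 lower only, 12 in both directions and 15 none. Over the 13660 genes of the array with a tested probe set, the shares were 24.1% higher only, 33.7% lower only, 8.16% in both directions and 34.0% none. Of the 36 genes with at least 2 tested probe sets, 12 (33.3%) had calls in both directions, and this was 1114 of 5605 genes (19.9%) over the whole array. The 12 genes were Eif1a, Eif2a, Eif3a, Eif3e, Eif3l, Eif3m, Eif4b, Eif4e, Eif4e2, Eif4ebp1, Eif4g2 and Eef1aknmt. Probe sets with names ending in _x_at or _s_at can also match other transcripts, and 26 of the 155 members are of these types. With those types left out of the same calls, 8 of 29 member genes (27.6%) had calls in both directions, against 852 of 4606 genes (18.5%). The count of such genes moved with the scaling: it was 6 (16.7%) after quantile normalization, 14 (38.9%) after median centring, 14 (38.9%) on the brighter 50% and 8 (22.2%) on the hybridization controls, where all genes gave 18.3%, 21.9%, 21.1% and 13.6%. The median distance between the highest and the lowest probe set of a gene, which a shift of a whole array does not touch, was 1.79 on the log2 scale for the member genes and 1.35 for all genes. This distance and the share of genes called in both directions can grow with the number of tested probe sets of a gene. At least 2 were tested in 36 of the 57 member genes and in 5605 of the 13660 genes. The comparisons were not matched for that number.

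The factors that open initiation gave the first such gene. eIF1 and eIF1A set the fidelity of start codon choice. The 8 tested probe sets grouped with them by name belong to Eif1ax, Eif1a, Eif1b and Eif1ad, and Eif1 itself is not among the members. Of these 8, 2 were higher, 1 was lower and 5 did not pass (1 to 2 and 1 under the 4 scalings). The shares of all tested probe sets were 24.7% and 32.8% as deposited. Eif1ax, the X-linked gene of eIF1A, had nonamplified intensities of 1804, 1850.0 and 1949.7 on 1419736_a_at and amplified ones of 4679, 5544 and 6888 (log2 fold change 1.57, SE 0.089, limma adjusted p = 1.49e-10). The groups did not overlap, and all 8 amplified arrays were above the nonamplified ones. The other Eif1ax probe sets, 1449576_at and 1437071_at, had log2 fold changes of −0.23 and 0.033 that did not pass.

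Eif1a, the autosomal gene of eIF1A, was read by a pair of probe sets with opposite calls. On 1424343_a_at the nonamplified intensities were 1118, 1206 and 1293 and the amplified ones 212, 317 and 503 (log2 fold change −1.88, SE 0.13, limma adjusted p = 3.28e-09). On 1424344_s_at they were 1194, 1228 and 1307 and 1331, 2019 and 3385 (log2 fold change 0.74, SE 0.17, limma adjusted p = 0.00118), a call lost after quantile normalization (−0.037) and on the hybridization controls (0.33). Neither probe set had overlapping groups, and the amplified arrays lay below on the first and above on the second. Eif1ad, a protein with an eIF1A-like domain, spread widely on 1455341_at, with amplified intensities of 2.14, 414 and 1095 around nonamplified ones of 304, 335 and 364 (log2 fold change −0.64, SE 0.8, limma adjusted p = 0.523). Eif1b, a close relative of eIF1, did not pass (log2 fold change −0.013).

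eIF2 is a trimer of alpha, beta and gamma subunits that binds GTP and the initiator tRNA, and with the alternative tRNA carriers eIF2A and eIF2D it had 16 tested probe sets, 1 higher and 8 lower (1 to 5 and 6 to 10 under the 4 scalings; 24.7% and 32.8% of all tested probe sets as deposited). Eif2s2, the beta subunit, did not pass as deposited on its probe set of highest nonamplified mean, 1417712_at, with 4249.6, 4484 and 4697 without amplification and 3677, 4772 and 5284 with it (log2 fold change 0.057, SE 0.077, limma adjusted p = 0.556). It was called lower after quantile normalization (−0.74) and higher after median centring (0.47) and on the brighter 50% (0.27). Another of its probe sets, 1448819_at, had 766, 815 and 945 without and 51.2, 237 and 486 with amplification (log2 fold change −1.87, SE 0.33, limma adjusted p = 0.000113), and here the groups did not overlap. The other tested Eif2s2 probe sets, 1417713_at and 1456617_a_at, were lower at −1.20 and −0.77, and 1448820_a_at at −0.35 did not pass but was called lower after quantile normalization (−1.16) and on the hybridization controls (−0.75). The 5 tested probe sets of this gene ranged over 1.92 on the log2 scale.

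All 3 probe sets of Eif2s3x, the X-linked gamma subunit, were lower. The amplified intensities on 1421895_at were 1, 203 and 506, against 1039, 1115 and 1184 without amplification (log2 fold change −2.54, SE 0.52, limma adjusted p = 0.000528), and amplified array 3 was listed at 1, the lowest value of the scale. On 1423744_x_at they were 142, 559 and 1275 against 1901, 2032 and 2071 (log2 fold change −1.87, SE 0.34, limma adjusted p = 0.000146), again without overlap. 1451090_a_at had amplified intensities of 139.6, 550.2 and 1378 against 1349.8, 1455 and 1557 (log2 fold change −1.47, SE 0.35, limma adjusted p = 0.00183), where the highest amplified array reached the nonamplified range. On both 1423744_x_at and 1451090_a_at, amplified arrays 1 and 5 were the highest and array 7 the lowest. Eif2s3y, the Y-linked gamma subunit, did not pass on 1417210_at, where the amplified arrays ranged over 557, 845 and 1596 and the nonamplified over 591, 665 and 716 (log2 fold change 0.41, SE 0.18, limma adjusted p = 0.0582), though it was called higher after median centring (0.82) and on the brighter 50% (0.63).

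Eif2a, which brings initiator tRNA to some mRNAs independently of GTP, went both ways. 1434452_x_at had nonamplified intensities of 420.4, 554 and 649 and amplified ones of 892, 1258 and 1714 (log2 fold change 1.14, SE 0.14, limma adjusted p = 3.1e-06), with no overlap. On 1460575_at the nonamplified intensities were 783, 815 and 892 and the amplified ones 345, 594 and 988 (log2 fold change −0.50, SE 0.16, limma adjusted p = 0.0139), and the amplified range spanned the nonamplified one. That call of lower was lost after median centring (−0.088) and on the brighter 50% (−0.28). Eif2d, also known as ligatin, had 5 tested probe sets, of which 1451211_a_at was lower (log2 fold change −0.76, SE 0.25, limma adjusted p = 0.0153), a call lost after median centring (−0.35) and on the brighter 50% (−0.54). The other 4, between −0.20 and 0.50, did not pass, although 1445172_at was called higher after quantile normalization (0.40) and after median centring (0.41) and 1455797_x_at was called higher after median centring (0.91) and on the brighter 50% (0.72).

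The 4 kinases that phosphorylate the alpha subunit of eIF2 and so damp initiation under stress had 9 tested probe sets, none higher and 5 lower (0 and 2 to 6 under the 4 scalings; 24.7% and 32.8% of all tested probe sets as deposited). Eif2ak1, the heme-regulated kinase, had nonamplified intensities of 209.6, 237 and 276 and amplified ones of 19.0, 87.9 and 118 on 1421900_at (log2 fold change −1.46, SE 0.22, limma adjusted p = 2.96e-05). It was also lower on 1436006_at (−0.81), a call lost after quantile normalization (−0.42) and after median centring (−0.40), and on 1453902_at (−0.22), a call lost after quantile normalization (0.18), after median centring (0.19) and on the brighter 50% (−0.00095). On 1421901_at it did not pass (−0.40). Eif2ak2, the kinase PKR that senses double-stranded RNA, gave the largest negative value of the class on 1422006_at, with 102, 119 and 129.7 without and 5.97, 11.2 and 17.7 with amplification (log2 fold change −2.33, SE 0.09, limma adjusted p = 1.3e-12). Its other tested probe set, 1422005_at, was lower at −0.73 with overlapping groups, a call lost after median centring (−0.33).

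Eif2ak4, the kinase GCN2 that senses uncharged tRNA, showed one of the widest spreads. On 1421389_a_at the amplified intensities were 1, 198 and 643, while the nonamplified ones were 77.0, 83.2 and 95.7 (log2 fold change 0.20, SE 0.7, limma adjusted p = 0.83). The amplified arrays thus lay on both sides of the nonamplified range. Eif2ak3, the endoplasmic reticulum kinase PERK, did the same on 1449278_at, with amplified intensities of 8.28, 556 and 1222 against 186, 196 and 209.7 (log2 fold change 0.99, SE 0.62, limma adjusted p = 0.187). A second Eif2ak4 probe set, 1443235_at, did not pass (−0.18) but was called lower on the hybridization controls (−0.59).

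eIF2B, the exchange factor that reloads eIF2 with GTP, has 5 subunits and gave 7 tested probe sets, 1 higher and 2 lower (1 and 2 to 4 under the 4 scalings; 24.7% and 32.8% of all tested probe sets as deposited). Eif2b2, the beta subunit, was higher on 1434538_x_at, with 563, 584 and 605 without and 1639.6, 2143 and 4098 with amplification (log2 fold change 1.97, SE 0.17, limma adjusted p = 2.7e-08) and no overlap. Its probe sets 1451136_a_at and 1437428_x_at, at −0.29 and −0.41, did not pass, although the first was called lower on the hybridization controls (−0.70) and the second called lower after quantile normalization (−0.54) and on the hybridization controls (−0.81). Eif2b3, the gamma subunit, was lower, with 397, 421 and 465 without and 18.2, 107 and 212 with amplification (log2 fold change −2.10, SE 0.34, limma adjusted p = 4.57e-05). Eif2b1, the alpha subunit, was lower as well, with nonamplified intensities of 563, 602 and 645 and amplified ones of 133, 202 and 287 (log2 fold change −1.55, SE 0.14, limma adjusted p = 7.85e-08). Neither of these had overlapping groups. Eif2b4 and the catalytic subunit Eif2b5, on 1433886_at, had log2 fold changes of −0.11 and −0.099 that did not pass, and the Eif2b5 probe set was called lower after quantile normalization (−0.55).

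eIF3, the largest initiation factor and the scaffold of the preinitiation complex, gave 25 tested probe sets of 11 subunit genes, 10 higher and 10 lower (1 to 13 and 8 to 18 under the 4 scalings; 24.7% and 32.8% of all tested probe sets as deposited). The groups did not overlap in 15 of the 25, where 33.6% of all tested probe sets had no overlap. The lists of higher and lower probe sets share the genes Eif3a, Eif3e, Eif3l and Eif3m.

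Eif3a, the largest subunit, had the widest range of any member gene, 4.79 on the log2 scale over 4 probe sets. On 1416659_at the nonamplified intensities were 2152, 2183 and 2281 and the amplified ones 1858, 2957 and 3118 (log2 fold change 0.27, SE 0.11, limma adjusted p = 0.048), a call that turned to lower after quantile normalization (−0.55) and was lost on the hybridization controls (−0.14). It was also lost without amplified array 1, 3, 4, 5 or 7 or any 1 nonamplified array (limma adjusted p up to 0.0867). On 1448425_at they were 3053, 3206 and 3282 and 872, 1796 and 2471 (log2 fold change −0.95, SE 0.2, limma adjusted p = 0.000549). The other 2 probe sets fell to low values on all 8 amplified arrays. 1416660_at had 1181, 1217 and 1314 without and 17.4, 48.1 and 70.2 with amplification (log2 fold change −4.39, SE 0.16, limma adjusted p = 8.92e-13), and 1416661_at had 585, 628 and 711 without and 1.51, 10.8 and 32.9 with it (log2 fold change −4.53, SE 0.16, limma adjusted p = 4.18e-13). The lowest nonamplified value of each was several times the highest amplified one.

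Eif3c was measured by 4 probe sets, and 3 of them stayed bright on all 8 amplified arrays. 1456374_x_at had 2192, 2289 and 2446 without and 3212, 4194 and 5547 with amplification (log2 fold change 0.88, SE 0.1, limma adjusted p = 1.64e-06), a call lost after quantile normalization (0.017), and 1456083_x_at was higher at 1.05. The probe set 1415858_at did not pass as deposited (log2 fold change 0.18, SE 0.15, limma adjusted p = 0.31), but was called lower after quantile normalization (−0.64) and higher after median centring (0.59) and on the brighter 50% (0.40). The remaining probe set, 1415859_at, fell into separate states on the amplified arrays. It read 3472, 2482, 3042 and 1277 on amplified arrays 1, 2, 4 and 6, and 16.6, 4.87, 4.28 and 14.9 on arrays 3, 5, 7 and 8, while the nonamplified arrays gave 1544, 1625 and 1746. Its difference between groups did not pass (log2 fold change −2.72, SE 1.2, limma adjusted p = 0.0597), although it did without any 1 of amplified arrays 1, 2, 4 and 6 (−3.27 to −3.06), and it was called lower after quantile normalization (−3.20) and on the hybridization controls (−3.12). Its log2 SD was 3.5 on the amplified and 0.062 on the nonamplified arrays, the largest amplified SD among the tested members.

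The 2 probe sets of Eif3m were called in opposite directions as deposited. On 1437189_x_at the nonamplified intensities were 759.8, 1009.7 and 1290.3 and the amplified ones 1502, 2464 and 2838 (log2 fold change 1.04, SE 0.16, limma adjusted p = 3.9e-05), a call lost after quantile normalization (0.30). On 1451076_s_at they were 1036, 1123 and 1189.9 and 130.1, 296 and 319.9 (log2 fold change −2.02, SE 0.15, limma adjusted p = 3.93e-09). Neither had overlapping groups, and both are of the types that can match other transcripts. Eif3l was called higher on 1423728_at, with 3067, 3179 and 3519 without and 2928, 3879 and 4471 with amplification (log2 fold change 0.23, SE 0.089, limma adjusted p = 0.0383), a call that turned to lower after quantile normalization (−0.63) and was lost on the hybridization controls (−0.18). It was also lost without amplified array 2, 3, 4 or 7 or any 1 of nonamplified arrays 3 to 8 (limma adjusted p up to 0.0727). Its probe sets 1437948_x_at and 1455811_at were lower at −1.96 and −2.48, without overlap.

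Eif3e had 4 tested probe sets. On 1439268_x_at the intensities were 2065, 2263 and 2444 without and 3121, 3946 and 4888 with amplification (log2 fold change 0.79, SE 0.1, limma adjusted p = 3.28e-06), a call lost after quantile normalization (−0.061) and on the hybridization controls (0.39). 1460432_a_at was lower, with 2904, 3044 and 3271 and 1191, 1808 and 2281 (log2 fold change −0.81, SE 0.13, limma adjusted p = 3.96e-05). Between these, 1434523_x_at stood at 0.046 and did not pass as deposited, but was called lower after quantile normalization (−0.80) and higher after median centring (0.45) and on the brighter 50% (0.26). The dim 1419822_at was lower (−0.89), a call lost after quantile normalization (−0.49) and after median centring (−0.48).

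The other subunits were called in 1 direction at most as deposited. Eif3k was higher (0.74), a call lost after quantile normalization (−0.11) and on the hybridization controls (0.33). Eif3f was higher (0.58), a call that turned to lower after quantile normalization (−0.27) and was lost on the hybridization controls (0.18). Eif3i was higher on 1448264_a_at (0.60), a call lost after quantile normalization (−0.22) and on the hybridization controls (0.20), and on 1416233_at (0.28), a call that turned to lower after quantile normalization (−0.55) and was lost on the hybridization controls (−0.12). Eif3d was lower (−0.74), a call lost after median centring (−0.33), and Eif3h was lower on 1415962_at (−1.23). Eif3b did not pass (−0.22) but was called lower after quantile normalization (−0.88) and on the hybridization controls (−0.62). Eif3h on 1434324_x_at, at 0.04, did not pass as deposited and was called lower after quantile normalization (−0.28) and higher after median centring (0.45).

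The DEAD-box helicase eIF4A, which unwinds structure ahead of the scanning ribosome, gave 4 tested probe sets, none higher and 3 lower (0 to 1 and 3 to 4 under the 4 scalings; 24.7% and 32.8% of all tested probe sets as deposited). Eif4a1, its main gene in dividing cells, was read at high intensity by all 3 probe sets without amplification. On 1434985_a_at the nonamplified intensities were 4619, 5125 and 5392 and the amplified ones 4759, 5677 and 5976 (log2 fold change 0.11, SE 0.074, limma adjusted p = 0.203), which did not pass but was called lower after quantile normalization (−0.64) and higher after median centring (0.52) and on the brighter 50% (0.33). On 1427058_at they were 6759, 6974 and 7266 and 898, 1494 and 1811 (log2 fold change −2.37, SE 0.14, limma adjusted p = 3.2e-10). On 1430980_a_at they were 6727, 7155 and 7245 and 337, 436 and 746 (log2 fold change −3.89, SE 0.15, limma adjusted p = 1.18e-12). The groups of the first overlapped and those of the other 2 did not. Eif4a2, the paralog, was lower, with 2958, 3132 and 3249 without and 899, 1360.2 and 2041 with amplification (log2 fold change −1.14, SE 0.14, limma adjusted p = 2.88e-06).

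Eif4b and Eif4h, which stimulate the helicase, gave 8 tested probe sets, 1 higher and 3 lower (0 to 3 and 3 to 6 under the 4 scalings; 24.7% and 32.8% of all tested probe sets as deposited). Eif4b was higher on 1426380_at, with 2058, 2153 and 2426 without and 3593, 4322 and 4696 with amplification (log2 fold change 0.94, SE 0.079, limma adjusted p = 2.29e-08), a call lost after quantile normalization (0.081). It was lower on 1426378_at, with 2231, 2344 and 2500.5 and 713, 1144 and 1725 (log2 fold change −1.05, SE 0.17, limma adjusted p = 4.76e-05), and on 1426379_at at −1.04. None of these 3 had overlapping groups. Eif4h was bright on 1438554_x_at and did not pass there, with 2962, 3132 and 3199 without and 2567, 3896 and 7108 with amplification (log2 fold change 0.37, SE 0.16, limma adjusted p = 0.0582), although it was called lower after quantile normalization (−0.48) and higher after median centring (0.78) and on the brighter 50% (0.59), and higher without amplified array 3, 4 or 6 (0.41 to 0.47). Among its other probe sets that did not pass, 1451521_x_at (0.27) was called lower after quantile normalization (−0.52) and higher after median centring (0.68) and on the brighter 50% (0.48), 1416941_s_at (−0.20) was called lower after quantile normalization (−0.98) and on the hybridization controls (−0.60) and 1447070_at (−0.19) was called lower on the hybridization controls (−0.60). On 1442942_at it was lower, with 129.6, 154 and 189 and 10.9, 24.2 and 39.1 (log2 fold change −2.12, SE 0.15, limma adjusted p = 2.99e-09). Amplified array 8 gave the highest value on 4 of the Eif4h probe sets.

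The cap-binding protein eIF4E, its relatives and its binding proteins had 14 of 16 tested probe sets called, 5 higher and 9 lower (3 to 5 and 7 to 10 under the 4 scalings). Of all tested probe sets, 57.5% were called as deposited, 24.7% higher and 32.8% lower. Eif4e itself was higher on 1423220_at, with 937, 993 and 1075 without and 1023, 1872 and 3109.6 with amplification (log2 fold change 0.84, SE 0.17, limma adjusted p = 0.000451). This call was lost after quantile normalization (0.11) and on the hybridization controls (0.43). On 1450908_at the intensities were 1810.3, 1884 and 2052 and 298, 641 and 1069.8 (log2 fold change −1.60, SE 0.18, limma adjusted p = 1.08e-06), and on 1450909_at they were 181, 235 and 302 and 14.5, 27.4 and 41.7 (log2 fold change −2.58, SE 0.14, limma adjusted p = 1.4e-10). Of the 3, the first had overlapping groups.

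Eif4e2, a cap-binding relative that represses translation of some mRNAs, went both ways. 1435803_a_at was higher, with 729, 802 and 832 without and 660.3, 2173 and 2612 with amplification (log2 fold change 1.15, SE 0.23, limma adjusted p = 0.000467), a call lost after quantile normalization (0.48). 1421985_a_at was lower, with 779, 811 and 826 and 134, 234 and 1237 (log2 fold change −1.46, SE 0.32, limma adjusted p = 0.001), and both had overlapping groups. Its dimmer probe sets were lower on 1421986_at (−0.82) and did not pass on 1455108_at (−0.79), which was lower without amplified array 1 (−1.08) and called lower on the hybridization controls (−1.20). Eif4e3, a further relative, was higher on 1417978_at (0.52), a call lost on the hybridization controls (0.12), and Eif4enif1, the transporter that carries eIF4E into the nucleus, did not pass (0.14).

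The binding proteins that sequester eIF4E until the kinase mTOR phosphorylates them gave the extremes of the class. As deposited, Eif4ebp1 had the largest positive log2 fold change of all tested members on 1434976_x_at, with 1569, 1648 and 1827 without and 6883, 7786 and 8895 with amplification (log2 fold change 2.24, SE 0.078, limma adjusted p = 3.71e-13). 1417562_at gave 1634, 1733 and 1805 and 6386, 7548 and 8764 (log2 fold change 2.13, SE 0.082, limma adjusted p = 1.14e-12). Both moved together and without overlap, while the dim 1417563_at, with 67.4, 109 and 145 and 10.2, 47.3 and 88.5, was lower (log2 fold change −0.96, SE 0.27, limma adjusted p = 0.00559), a call lost after quantile normalization (−0.61) and after median centring (−0.55). In Eif4ebp2 all 4 tested probe sets were lower as deposited, and the call of 1455575_at (−0.91) was lost after quantile normalization (−0.55), after median centring (−0.50) and on the brighter 50% (−0.69). 1417084_at had 371, 467 and 577 without and 5.12, 19.0 and 179 with amplification (log2 fold change −3.68, SE 0.35, limma adjusted p = 9.6e-08), and 1436158_at had 909, 960.3 and 992 and 1, 345 and 836 (log2 fold change −2.64, SE 0.8, limma adjusted p = 0.00976). The first had 7 amplified arrays at or below 25.1 and the second spread from the lowest listed value to near the nonamplified range.

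The scaffold eIF4G was represented by Eif4g2 and Eif4g3, with 6 tested probe sets, 2 higher and 3 lower (1 to 3 and 1 to 4 under the 4 scalings; 24.7% and 32.8% of all tested probe sets as deposited). Eif4g2, which lacks the eIF4E binding site and is needed for stem cells to leave pluripotency, varied little on a pair of its probe sets. On 1415863_at the intensities were 3371, 3971 and 4201 without and 3548, 4034 and 4328 with amplification (log2 fold change 0.028, SE 0.073, limma adjusted p = 0.768), and it was called lower after quantile normalization (−0.81) and on the hybridization controls (−0.38) and higher after median centring (0.44) and on the brighter 50% (0.24). On 1452758_s_at they were 4113, 4642 and 5064 and 5832, 6091 and 6447 (log2 fold change 0.41, SE 0.066, limma adjusted p = 5.11e-05), a call that turned to lower after quantile normalization (−0.38) and was lost on the hybridization controls (0.0052). Their log2 SD on amplified arrays was 0.095 and 0.057. Another probe set, 1428362_at, with a log2 SD of 0.48 on amplified arrays, rose to 1372, 2297 and 3934 from 1029, 1078 and 1170.2 (log2 fold change 1.18, SE 0.17, limma adjusted p = 1.48e-05), and the dim 1458431_at was lower (−0.61), a call lost after quantile normalization (−0.21), after median centring (−0.20) and on the brighter 50% (−0.39). Eif4g3 was lower on 1426833_at, with 216, 243 and 254 and 34.8, 79.3 and 169 (log2 fold change −1.52, SE 0.23, limma adjusted p = 2.29e-05), and on the dim 1446145_at (−0.79), a call lost after quantile normalization (−0.38), after median centring (−0.38) and on the brighter 50% (−0.58).

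eIF5, which triggers GTP hydrolysis by eIF2, eIF5A, which carries the modified residue hypusine, and eIF5B, which joins the subunits, gave 12 tested probe sets, none higher and 7 lower as deposited (0 to 3 and 5 to 9 under the 4 scalings; 24.7% and 32.8% of all tested probe sets as deposited). Eif5 ranged over 4.53 on the log2 scale. Its probe set 1415723_at had 1421, 1481 and 1647 without and 989, 2269.7 and 3276 with amplification and did not pass (log2 fold change 0.45, SE 0.22, limma adjusted p = 0.0986), though it was called higher after median centring (0.86) and on the brighter 50% (0.66). 1454664_a_at, in contrast, had 1522, 1628 and 1720.4 and 46.5, 63.7 and 297 (log2 fold change −4.08, SE 0.26, limma adjusted p = 8.03e-10), with no overlap. 1456256_at (−2.80) and 1454663_at (−0.79) were lower, the latter a call lost after median centring (−0.38). 1433631_at (−0.49) did not pass but was called lower after quantile normalization (−1.19) and on the hybridization controls (−0.90).

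Eif5a was among the steadiest members. On 1451470_s_at the intensities were 5922, 6199 and 6485 without and 6013, 6798 and 7211 with amplification (log2 fold change 0.13, SE 0.064, limma adjusted p = 0.0952), which did not pass but was called lower after quantile normalization (−0.57) and higher after median centring (0.54) and on the brighter 50% (0.34). It was also called higher without amplified array 6 (0.15). On 1437859_x_at they were 3522, 3837 and 3989 and 3061, 3337 and 3788 (log2 fold change −0.18, SE 0.068, limma adjusted p = 0.0345), a call of lower that turned to higher after median centring (0.23) and was lost on the brighter 50% (0.039). It was also lost without amplified array 4, 5 or 6 or nonamplified array 1, 2, 3, 4, 5 or 7 (limma adjusted p up to 0.0627). Eif5a2, its paralog, was lower on 1438256_at (−1.17). On 1434593_at it spread over 1, 251 and 424 on the amplified arrays against 64.6, 80.4 and 89.2 without amplification (log2 fold change 0.38, SE 0.7, limma adjusted p = 0.67). Eif5b was lower on 1434605_at, with 279, 285 and 307 and 1, 11.6 and 48.3 (log2 fold change −3.25, SE 0.24, limma adjusted p = 5.42e-09), and on 1434604_at (−1.20), while 1435592_at (−0.38) did not pass but was called lower on the hybridization controls (−0.79). Eif6, which keeps free large subunits from joining too early, was higher on both probe sets (1 to 2 and 0 under the 4 scalings; 24.7% and 32.8% of all tested probe sets as deposited). It went from 1485, 1533 and 1624 to 2145, 3377 and 5602 on 1427578_a_at (log2 fold change 1.13, SE 0.17, limma adjusted p = 2.96e-05), a call lost after quantile normalization (0.33), and stood at 0.35 on the dim 1431582_at, a call lost on the hybridization controls (−0.057).

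Among the elongation factors, Eef1a1 and Eef2 did not pass as deposited. Eef1a1, which delivers aminoacyl-tRNA, had nonamplified intensities of 9965, 10176 and 10392 and amplified ones of 9418, 9749 and 10479 (log2 fold change −0.045, SE 0.06, limma adjusted p = 0.55), but was called lower after quantile normalization (−0.59) and on the hybridization controls (−0.45) and higher after median centring (0.36) and on the brighter 50% (0.17). Its groups overlapped, and its log2 SD was 0.059 on the amplified and 0.021 on the nonamplified arrays. Eef1a2, the paralog of muscle and neurons, was dim and higher, with 80.2, 111 and 137 and 139.6, 184 and 288 (log2 fold change 0.83, SE 0.14, limma adjusted p = 0.000105), a call lost on the hybridization controls (0.43). Eef2, the translocase, had 4306, 4404 and 4705 and 3466, 4296 and 8814 and did not pass (log2 fold change 0.063, SE 0.16, limma adjusted p = 0.753). It was called lower after quantile normalization (−0.71) and higher after median centring (0.47). Its kinase Eef2k (−0.38 on 1449013_at and −0.81 on 1437829_s_at) and its methyltransferase Eef2kmt (−0.54) did not pass either, although 1449013_at was called lower on the hybridization controls (−0.79).

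The eEF1B exchange factor was called on all 4 of its tested probe sets as deposited, 1 higher and 3 lower (0 to 1 and 1 to 3 under the 4 scalings; 24.7% and 32.8% of all tested probe sets as deposited; 57.5% of all were called). Eef1b2 was higher, with 5829.7, 6096 and 6233 without and 6775, 6918 and 8379 with amplification (log2 fold change 0.23, SE 0.066, limma adjusted p = 0.00796), a call that turned to lower after quantile normalization (−0.45) and was lost on the hybridization controls (−0.18). Eef1d was lower on all 3 tested probe sets, with 2873, 2940.1 and 3278 and 529, 945 and 1828 on 1449506_a_at (log2 fold change −1.64, SE 0.18, limma adjusted p = 5.09e-07). On 1439439_x_at and 1428135_a_at it was lower at −0.71 and −0.93 with overlapping groups, the first call lost after median centring (−0.30) and the second lost after quantile normalization (−0.54), after median centring (−0.52) and on the brighter 50% (−0.72). Eef1e1, which sits in the tRNA synthetase complex, was higher, with 1481, 1586 and 1640.0 and 1635, 1921 and 2152 (log2 fold change 0.27, SE 0.075, limma adjusted p = 0.00513), a call that turned to lower after quantile normalization (−0.50) and was lost on the hybridization controls (−0.13).

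The methyltransferases of eEF1A gave the remaining calls. Eef1aknmt was lower on 1423761_at, with 106, 125 and 142 without and 5.71, 33.5 and 148 with amplification (log2 fold change −1.36, SE 0.38, limma adjusted p = 0.00546), and higher on 1453580_at, with 23.7, 47.7 and 56.1 and 56.2, 96.9 and 112 (log2 fold change 0.82, SE 0.14, limma adjusted p = 0.000109), a call lost on the hybridization controls (0.41). Both are dim probe sets. The 4 Eef1akmt1 probe sets, at −0.77 to 0.26, did not pass, and all 4 were highest on amplified array 8 and next highest on array 6. Of these, 1418386_at was called lower after quantile normalization (−0.88) and on the hybridization controls (−1.17) and 1449072_a_at was called higher after median centring (0.67). Eef1akmt2 on 1428582_at did not pass (−0.63) and spread widely. It read 502 and 603 on amplified arrays 3 and 4, at most 3.45 on the other amplified arrays, and 41.5 to 58.8 without amplification.

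To compare probe sets of a gene without the scaling between arrays, the log2 difference between the 2 brightest tested probe sets of each gene was taken within each array and compared between groups. It changed in 28 of 36 member genes (77.8%), against 2949 of 5605 genes (52.6%), in limma with adjustment over the 5605. These shares were not matched for the brightness of the probe sets. For Eif3m the difference went from −0.12 on the nonamplified to 2.94 on the amplified arrays (change 3.06, SE 0.15, limma adjusted p = 8.47e-11). For Eif4a1 it went from −0.46 to 2.02 (change 2.48, SE 0.14, limma adjusted p = 3.88e-10), and for Eif4e from −0.93 to 1.51 (change 2.44, SE 0.19, limma adjusted p = 1.54e-08). Eif1a and Eif4e2 changed by 2.61 and 2.60. In the other direction stood Eef1aknmt (−2.17) and Eif3h (−1.27).

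The choice of the 2 probe sets by their mean over all 16 arrays favours probe sets that were high on the amplified arrays, and 21 of the 28 changes favoured the brighter one. When the 2 were chosen by the nonamplified mean alone, an alternative chosen after the data were examined, 29 of 36 member genes (80.6%) changed, 14 toward the brighter and 15 toward the dimmer probe set, against 3022 of 5605 genes (53.9%). Among the 8 that did not pass with the first choice was Eif4ebp1, whose 2 brightest probe sets moved together (change 0.10, SE 0.078, limma adjusted p = 0.295). Eif3c was another (change −0.17, SE 0.075, limma adjusted p = 0.0665), read there on its 2 brightest probe sets.

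The amplified arrays also differed from each other more than the nonamplified ones did. The array-to-array spread was larger on the amplified arrays for 82 of the 131 members (62.6%) and for 14263 of 27022 probe sets (52.8%), in limma on the absolute deviations from the group mean, and it was smaller for none of the members. The median log2 SD of the members was 0.477 on the amplified and 0.0711 on the nonamplified arrays, and 0.513 and 0.126 over all tested probe sets. In the members over 1500 without amplification the median SD was 0.338, in those between 300 and 1500 it was 0.715, and in those under 300 it was 0.659. All probe sets of these ranges had 0.259, 0.746 and 0.47.

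The 5 most variable members were Eif3c on 1415859_at, Eif2ak4 on 1421389_a_at, Eif5a2 on 1434593_at, Eif4ebp2 on 1436158_at and Eif1ad on 1455341_at, with log2 SD of 3.5, 2.1, 2.1, 2.4 and 2.4. They were taken from the upper 50% of the nonamplified mean. The 5 least variable were Eef1a1, Eif4g2 on 1415863_at and 1452758_s_at, and both Eif5a probe sets, with log2 SD of 0.057 to 0.098. The 5 steady members had nonamplified means from 3811 to 10186, and the 5 variable ones had nonamplified means from 78.7 to 1625.

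A probe set was counted as dropped out on an array when it lay in the upper 50% of the nonamplified means but under the 25th percentile of that array. Of the 125 members in that upper range, 102 never dropped out, 18 did so on 1 to 3 amplified arrays, 4 on 4 to 7 and 1 on all 8. The last was Eif4h on 1445746_at, which was not tested for level because of its low mean. Next came Eif2ak2 on 1422006_at with 7 arrays, Eif3a on 1416661_at with 6, and Eif5b on 1434605_at and Eif2s2 on 1441023_at with 5 each. Per amplified array 5 to 12 members dropped out, a mean of 6.7% ± 2.14 (SD, n = 8), where all probe sets had 14.5% ± 0.818 (SD, n = 8). These shares were not matched for brightness. Of the 131 tested members 49 had a nonamplified mean over 1500, against 1147 of all 27022 tested probe sets. As the upper 50% was taken from the nonamplified means, a nonamplified array could hardly hold a dropout, and the counts do not compare the groups.

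Across the 131 members, the log2 intensities of a single amplified array correlated with the nonamplified mean at r = 0.775 to 0.819. The same over all tested probe sets was 0.587 to 0.632. The members were not matched to all probe sets for brightness here either. A nonamplified array reached 0.997 to 0.999 over the members against the mean of the other 7. These are correlations across probe sets within an array, which are not independent replicates.

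The other translation genes were taken from 7 lists of 48 genes by role, with 83 tested probe sets. Of these, 11 were higher and 38 lower, and their median log2 fold change was −0.51. The counts were 8 and 41 after quantile normalization (30.6% and 29.6% of all tested probe sets) and 19 and 27 after median centring (38.1% and 22.2%). They were 16 and 30 on the brighter 50% (31.4% and 26.6%) and 4 and 43 on the hybridization controls (13.0% and 43.9%). The cap, poly(A) and scanning partners had 5 higher and 13 lower of 24 tested, the start site and reinitiation factors 1 and 1 of 4, the control kinases and phosphatases 1 and 5 of 13. Termination, recycling and rescue factors had 2 higher and 9 lower of 18, selenocysteine insertion 0 and 1 of 3, the enzymes that modify eEF2 and eIF5A 2 and 3 of 10, and the mitochondrial factors 0 and 6 of 11. The counts by list are as deposited and are to be read against the 24.7% higher and 32.8% lower of all tested probe sets.

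From these lists a few partners with large changes or with several probe sets are given, chosen after their values were seen. Pabpc4, a poly(A)-binding protein, was higher on 1421046_a_at (log2 fold change 2.46, SE 0.078, limma adjusted p = 1.08e-13) and 1451296_x_at (log2 fold change 2.17, SE 0.07, limma adjusted p = 1.43e-13). Ddx3x, a helicase of scanning, was lower on 1423043_s_at, with 3009, 3183 and 3284 without and 1, 9.03 and 15.6 with amplification (log2 fold change −7.02, SE 0.13, limma adjusted p = 1.52e-16). It was also lower on 1416467_at, with 1649.6, 1811 and 1888 without and 52.7, 326 and 586 with amplification (log2 fold change −2.76, SE 0.39, limma adjusted p = 1.3e-05). On 1423042_at it had 2449.6, 2514 and 2601 and 2029, 2521 and 3979.8 and did not pass (log2 fold change 0.025, SE 0.12, limma adjusted p = 0.873). That probe set was called lower after quantile normalization (−0.80) and higher after median centring (0.43). Gspt1, the release factor eRF3, was lower on 1426736_at (log2 fold change −2.81, SE 0.11, limma adjusted p = 1.98e-12), 1426737_at (−3.20) and 1452168_x_at (−2.84). It was also lower on the dim 1446550_at (−0.44). That call was lost after quantile normalization (−0.034), after median centring (−0.032) and on the brighter 50% (−0.22). Gspt1 did not pass on 1435000_at (0.0045) or on 1455173_at (0.25). The latter had 340, 376 and 397 without and 7.63, 889 and 2054 with amplification. Abce1, which splits ribosomes after termination, was lower on 1416014_at (−3.25) and higher on 1416015_s_at (0.55), a call that turned to lower after quantile normalization (−0.26) and was lost on the hybridization controls (0.14). Dohh, the enzyme that completes hypusine on eIF5A, was higher on 1417322_at (log2 fold change 2.21, SE 0.27, limma adjusted p = 2.26e-06).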

How the data were processed

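Total RNA was isolated with a silica column kit, and biotinylated cRNA was hybridised to 16 Affymetrix arrays, per the labels' protocols. The values are linear intensities as deposited, 1 for each probe set on each array, with no detection call. How probes were summarised, how arrays were scaled and when they were scanned is not given in the sources used here, so no batch was tested. No column was left unused. Symbols came from the platform annotation and were matched through RefSeq (GRCm38.p6), where all 58 genes matched and 47 had a promoter window. Eif1, Eif4g1 and Eif2s1 are not analysed here.

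Intensities were transformed as log2(intensity + 16). The 64 control probe sets and those with a mean at or under the 40th percentile were left out, which left 27022. Groups, taken from the sample titles, were compared 2-sided in limma 3.58.1 (lmFit and eBayes; R 4.3.3) with no covariate, and p-values were adjusted by Benjamini-Hochberg over all tested probe sets, with a threshold of 0.05. Spread was tested the same way on absolute deviations from the group mean, and pairs of probe sets on their within-array difference over 5605 genes. The steps were tested on simulated data. Tables were made with pandas 2.3.3 in Python 3.11.15.

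Named probe sets were, in each class of factors, that of the highest nonamplified mean and the called ones of the largest positive and negative log2 fold change. Genes called in both directions, the 5 most and 5 least variable members, and Eef1a1, Eef2, Eif4e, Eif4a1 and Eif5a were added, and other members are given by their log2 fold change, with intensities for a few chosen after their values were seen. Members and lists were chosen with earlier results of these data known. Alternatives were 2 other pseudocounts (1 and 64), 4 scalings, no filter, a 60th percentile filter, no _x_at or _s_at probe sets, a robust intensity trend, weights per group, a block for the replicate number, and leaving out each array. The number of arrays, 8 in each group, limits the precision. Same-numbered arrays of the groups did not deviate together (correlations of −0.0078 to 0.018), so the numbers do not pair them.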

Additional observations from a re-analysis of the deposited data

Results flagged for a closer look

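For each of the 67 named probe sets, the 8 arrays of each group were searched for an array that stood apart from the other 7. Of 134 groups examined, 12 (8.96%) held one. The cut-off used flags about 5% of groups of independent, normally distributed values. The probe sets were named partly for large change or spread and several share a gene, so these shares cannot show an excess over chance.

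Of the 12, 8 lay on the amplified arrays. Eif4ebp2 on 1417084_at read 179 on amplified array 1 and 5.12 to 25.1 on the other 7. Eif5 on 1454664_a_at read 297 on amplified array 4 and 46.5 to 103 elsewhere, and Eif4g2 on 1458431_at read 86.2 on array 5 and 15.1 to 37.9 elsewhere. Low single values were found for Eif2s2 on 1417712_at, with 3677 on amplified array 3 against 4550.2 to 5284, and for Eif2s3x on 1421895_at, listed at 1 on the same array against 133 to 506. Amplified array 8 stood apart for 3 probe sets. It was low for Eif2ak1 on 1421900_at (19.0 against 62.9 to 118) and for Eif3m on 1451076_s_at (130.1 against 244 to 319.9), and high for Eef1b2 (8379 against 6775 to 7379).

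The other 4 lay on nonamplified arrays and differed by small ratios. Eif3a on 1416660_at read 1314 on nonamplified array 3 against 1181 to 1238, and Eif4b on 1426379_at read 1662 on array 1 against 1466 to 1548. Eif4a1 on 1430980_a_at read 6727 on array 6 against 7018 to 7245, and Eif2b5 on 1433886_at read 556 on array 5 against 602 to 639.6.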

How the results depend on the processing

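For the 67 named probe sets, 1732 of 1855 values under 29 alternatives kept their call or stayed uncalled. Of the others, 66 lost the call, 34 gained one and 23 changed sign, and the cause of these changes was not tested. A change of sign was counted only where the probe set was called as deposited or under the alternative. Those of values uncalled in both are not listed, such as Eef2 on the hybridization controls (0.063 to −0.34). The changes listed next are those counted. The sign changed after quantile normalization for Eif4g2 on 1415863_at (−0.81) and 1452758_s_at (−0.38), Eif3a on 1416659_at (−0.55), Eif2s2 on 1417712_at (−0.74), Eif3l on 1423728_at (−0.63), Eif1a on 1424344_s_at (−0.037), Eef2 (−0.71), Eif3e on 1434523_x_at (−0.80) and 1439268_x_at (−0.061), Eif4a1 on 1434985_a_at (−0.64), Eif4h on 1438554_x_at (−0.48), Eef1b2 (−0.45), Eef1e1 (−0.50) and Eif5a on 1451470_s_at (−0.57). It changed for Eef1a1 (0.36) and Eif5a on 1437859_x_at (0.23) with median centring, for the same probe sets (0.17 and 0.039) on the brighter 50%, and on the hybridization controls for Eif4g2 on 1415863_at (−0.38), Eif3a on 1416659_at (−0.14), Eif3l on 1423728_at (−0.18), Eef1b2 (−0.18) and Eef1e1 (−0.13). The median log2 fold change of the members, −0.35 as reported, was −0.20 with a pseudocount of 64, −0.55 after quantile normalization, 0.062 with median centring, −0.13 on the brighter 50%, −0.75 on the hybridization controls, −0.22 with the 60th percentile filter and −0.54 without _x_at and _s_at probe sets. Members called higher numbered 12, 45 and 12 under quantile normalization, median centring and the hybridization controls, and 18 of fewer probe sets without those types. Over all probe sets, 10305 were higher with median centring and 3518 on the hybridization controls. With no filter 13996 were lower, with more probe sets tested, and 4476 pairs changed, and with the 60th percentile filter, where fewer were tested, 10148 were called and 5266 were lower.

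Leaving out each array in turn, 75 to 91 members were called, 25 to 30 higher and 50 to 61 lower, and the median was −0.39 to −0.27. In 55 to 63 members the groups did not overlap. Removing an array cannot make separate groups overlap, so that count is no test of stability. Of the 67 named probe sets 49 to 55 were called, against 53 with all arrays. Many were named for a call in these same data, so this count is no test of stability either. Spread was larger for 71 to 86 members and 27 to 29 pairs of member genes changed. Over all probe sets 14743 to 15788 were called, 6446 to 6644 higher and 8204 to 9159 lower, spread differed for 12912 to 14572 and 2774 to 3023 pairs changed. Eif3a on 1416659_at lost its call without any 1 of 13 arrays (limma adjusted p up to 0.0867), namely amplified 1, 3, 4, 5 and 7 and each nonamplified one. Eif3l on 1423728_at lost it without amplified array 2, 3, 4 or 7 or nonamplified array 3 to 8 (up to 0.0727), and Eif5a on 1437859_x_at without amplified array 4, 5 or 6 or nonamplified array 1 to 5 or 7 (up to 0.0627). Eif3c on 1415859_at was called without amplified array 1, 2, 4 or 6 (−3.27 to −3.06), Eif4h on 1438554_x_at without 3, 4 or 6 (0.41 to 0.47), Eif4e2 on 1455108_at without 1 (−1.08) and Eif5a on 1451470_s_at without 6 (0.15). With the replicate number as a block, 14856 probe sets and 76 members (24 higher, 52 lower) were called, spread differed for 13005 probe sets and 69 members, and 2773 pairs and 27 member pairs changed. Calls of Eif3a on 1416659_at (limma adjusted p = 0.0913), Eif3l on 1423728_at (0.0653), Eif5a on 1437859_x_at (0.102) and Eef1b2 (0.051) were lost under the block. With weights per group, Eif3a on 1416659_at (limma adjusted p = 0.0596), Eif3l on 1423728_at (0.127) and Eif5a on 1437859_x_at (0.187) lost their calls. So did Eef1b2 (0.0605) and Eif4ebp1 on 1417563_at (0.0713). The weights added calls for Eif3c on 1415859_at (0.0105), Eif4h on 1438554_x_at (0.0378) and Eif4e2 on 1455108_at (0.0481). A pseudocount of 1 removed the calls of Eif3a on 1416659_at (limma adjusted p = 0.0601), Eif3l on 1423728_at (0.0539) and Eif5a on 1437859_x_at (0.0592). No filter removed those of Eif3a (0.0575) and Eif5a (0.0524) on the same probe sets. Eif5a on 1451470_s_at was called with a pseudocount of 64 (0.0255) and with the robust trend (0.00383). The robust trend also added Eif4h on 1438554_x_at (0.0467). As no detection call was given, it was not known which dim values lay above background.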
